A study of Mus musculus with 13 samples.

Results

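The response to the gel that normal and tumor mammary organoids share was measured as the mean of the collagen-I-minus-Matrigel difference in normal organoids and the same difference in tumor organoids, with equal weight for each tissue. The genes described are those whose averaged difference passed the test and had the same sign in both tissues, 2448 of 18275 genes tested. Organoids are epithelial fragments of many cells, released from tissue by chopping and by digestion with collagenase and trypsin. Normal organoids came from mammary glands of FVB mice, with no age given in the labels. Tumor organoids came from the largest mammary tumor of MMTV-PyMT mice of 12 to 16 weeks, in which the mouse mammary tumor virus promoter drives the polyoma middle T antigen in mammary epithelium and carcinomas form. Both kinds were embedded in Matrigel, a basement membrane extract rich in laminin and collagen IV, or in a gel of 3 mg/ml collagen I from rat tail, and all were cultured for 4 days with 2.5 nM FGF2. RNA from each culture was hybridised to a 1-colour Agilent array, and 12 of 14 arrays were compared. They form 4 groups of 3 arrays. Mice A, B and D gave the normal Matrigel group, mice A, B and C the normal collagen group, and tumor-bearing mice A, B and C gave both tumor groups. A letter stands for 1 mouse within a tissue but not across tissues. Normal Matrigel A and B each had a further array from an earlier batch. The sample of mouse B carries the earlier batch number in its labels, which also say that one RNA was run in both batches. The array of B compared here is the later one, which shares a slide with normal collagen C. With the earlier arrays averaged in, 745 of the 849 genes without overlap described below kept their call.

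Collagen I is the main fibrillar collagen of connective tissue, and basement membrane, the sheet on which mammary epithelium normally rests, is built from laminins, collagen IV and nidogens. Cells read these matrices through integrins and remodel them with secreted metalloproteinases. Mammary epithelium that loses contact with basement membrane and meets fibrillar collagen is known to change its shape, its adhesion and the proteases it makes.

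Levels are log2 values relative to each array's 75th percentile of processed signal, and differences between gels are on the same log2 scale, with the standard error (SE) of the limma fit after ±. A gene was called when its averaged difference had a Benjamini-Hochberg adjusted p under 0.05 over all genes tested. Array brightness differed, since the 75th percentile of signal ranged from 383 to 570 on tumor Matrigel arrays and from 671 to 1216 on the others. The 192 spike-in control probes bright on every array stood on average 3.41 ± 0.20 (SD, n = 3) log2 units over the 75th percentile on tumor Matrigel arrays, against 1.21 ± 0.17 to 1.68 ± 0.24 in the other groups. The median over all spike-in probes, dim ones included, was -0.32 to 0.36 on tumor Matrigel arrays and -2.28 to -1.47 on the others. Differences are therefore relative to the bulk of each array, and scaling on the spike-in probes in place of the 75th percentile moved the median over all genes from -0.02 to 0.99. The summed level of luminal markers (linear signal over the 75th percentile) was 686 to 943 in normal Matrigel and 663 to 774 in normal collagen arrays. In tumor organoids it was 1148 to 1682 in Matrigel and 697 to 885 in collagen I, without overlap. Fewer cells of a type and less RNA per cell cannot be told apart in such bulk samples.

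Of 18275 genes tested, 2686 (14.7%) were called on the averaged gel effect. Higher expression in collagen I was called for 1701 (9.31%) and lower expression for 985 (5.39%). The split differed with the kind of probe. Among genes read by a probe that carries a RefSeq accession, 603 were called higher and 756 lower. Among the 6261 genes read by other probes 1098 were called higher and 229 lower. With mouse as a fixed block, since a shared letter is a shared animal, 867 genes were called, and with mouse as a random block 3910. Counts without 1 array lay between 1146 and 3222. They were lower by more than 1.5 times without normal collagen A (1788), normal collagen B (1316), normal collagen C (1146), tumor Matrigel B (1771) or tumor collagen A (1415). With slide as a fixed block, which leaves 2 residual degrees of freedom, 246 genes were called.

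Of the 2686 called genes, 2448 (91.1%) had the same sign in both tissues and 238 had opposite signs. Over all genes tested 56.5% had the same sign, and among genes not called 50.5%. A call on the average itself favors equal signs, because opposite differences cancel in it. These shares are therefore no test of agreement between the tissues. Across all genes tested, the normal and tumor differences correlated at r = 0.31. The same-sign genes were 1575 higher (8.62% of genes tested) and 873 lower (4.78%). The same-sign count was lower by more than 1.5 times without normal Matrigel A (1552), normal collagen B (1252), normal collagen C (1070) or tumor collagen A (1335), and was 814 with mouse as a fixed block.

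In 849 of these genes the 3 collagen arrays and the 3 Matrigel arrays did not overlap in either tissue, 537 of them higher (2.94%) and 312 lower (1.71%). Non-overlap in one direction in both tissues, called or not, held for 1024 genes (5.60%). The count of 849 fell to 554 without normal collagen C and to 292 with mouse as a fixed block. The count of 312 lower genes fell to 72 with mouse as a fixed block, to 1 with slide as a fixed block and to 1 under spike-in scaling. The median averaged difference was 1.18 for the 537 higher genes, with 0.82 in normal and 1.45 in tumor organoids. It was -0.68 for the 312 lower genes, with -0.44 in normal and -0.86 in tumor organoids. The tumor difference was the larger in 730 of the 849 (86.0%), and also in 2188 of all 2448 same-sign genes. A difference of at least 2-fold in each tissue was measured for 187 higher and 24 lower genes.

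The average does not by itself require a response in each tissue. A test that asks for one in both (the larger of both tissues' p-values) called 0 genes after Benjamini-Hochberg adjustment, with a lowest adjusted p of 0.307. At an unadjusted p under 0.05 it held for 574 genes, 424 higher and 150 lower, and 568 of these were among the called genes. In the limma fit 8 genes were called on the normal difference and 5087 on the tumor difference, each adjusted on its own, with 4 of the 8 called on both, and 275 genes were called on the average but in neither tissue. The gel effect differed between tissues (adjusted p under 0.05 for the difference) for 480 genes (2.63%), of which 133 were among the 2448 and 24 among the 849.

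**Figure D1:**
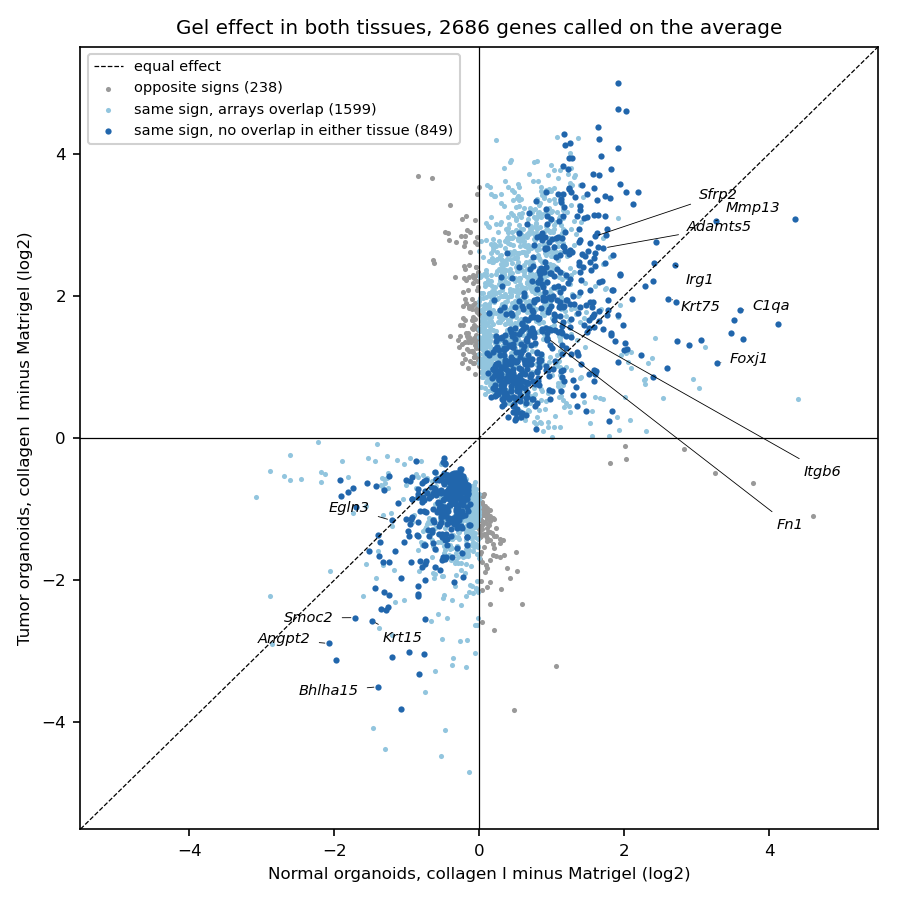
Collagen-I-minus-Matrigel difference (log2) in tumor organoids against that in normal organoids for the 2686 genes called on the average, 1 point a gene. Dark blue points are the 849 same-sign genes without overlap between gels in either tissue, light blue points the other same-sign genes and grey points the 238 with opposite signs. Most dark points (730 of 849) lie farther from 0 on the tumor axis than on the normal axis, as do 2188 of all 2448 same-sign genes.

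The promoter windows of 4 genes are shown because they come from groups described next: Mmp13 is a matrix protease that was higher, and Egln3, Hk2 and Pgk1 come from the hypoxia and glycolysis genes called lower, and all 3 have a match to ACGTG, which not every gene of that list does. Each is the RefSeq window of 300 bases on build GRCm38.p6, from 250 bases before a transcription start to 50 after it. Capitals mark exact matches, on either strand, of TGANTCA (the AP-1 site), TGTGGT (the Runx core), TGACGTCA (the CRE) and ACGTG (the core of the hypoxia response element, which the CRE letters overlap in part). The windows are chr9:7272264-7272563 for Mmp13 and chrX:106186850-106187149 for Pgk1, both on the plus strand, and chr12:54203825-54204124 for Egln3 and chr6:82774405-82774704 for Hk2, both on the minus strand.
Mmp13: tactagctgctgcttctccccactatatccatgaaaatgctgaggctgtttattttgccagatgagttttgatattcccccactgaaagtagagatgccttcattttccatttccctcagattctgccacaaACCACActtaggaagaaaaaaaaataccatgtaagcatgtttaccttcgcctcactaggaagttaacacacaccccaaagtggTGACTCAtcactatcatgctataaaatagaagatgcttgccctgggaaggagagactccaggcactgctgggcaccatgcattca
Egln3: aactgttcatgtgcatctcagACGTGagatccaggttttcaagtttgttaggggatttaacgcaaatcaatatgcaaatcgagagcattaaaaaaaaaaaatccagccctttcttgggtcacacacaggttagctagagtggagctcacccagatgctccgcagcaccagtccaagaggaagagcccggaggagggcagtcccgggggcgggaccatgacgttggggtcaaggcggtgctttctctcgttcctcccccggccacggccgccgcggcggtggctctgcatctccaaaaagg
Hk2: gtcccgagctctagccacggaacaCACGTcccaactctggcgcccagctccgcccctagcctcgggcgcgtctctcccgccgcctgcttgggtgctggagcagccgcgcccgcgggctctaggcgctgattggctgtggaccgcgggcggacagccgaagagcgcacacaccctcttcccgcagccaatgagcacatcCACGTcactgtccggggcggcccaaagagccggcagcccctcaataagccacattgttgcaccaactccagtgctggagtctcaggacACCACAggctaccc
Pgk1: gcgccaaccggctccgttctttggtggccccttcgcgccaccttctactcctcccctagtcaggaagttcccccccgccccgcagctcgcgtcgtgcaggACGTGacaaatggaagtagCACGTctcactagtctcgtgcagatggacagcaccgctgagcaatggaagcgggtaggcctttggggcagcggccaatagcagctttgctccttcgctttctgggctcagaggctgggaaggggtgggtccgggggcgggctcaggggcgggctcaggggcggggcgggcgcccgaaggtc

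Mmp13 has 1 match to the AP-1 letters, which begins 35 bases before the start, and 1 to the Runx letters. Pgk1 and Hk2 have 2 matches each to ACGTG and Egln3 has 1. Of the other genes of that list called lower, Eno1, Pfkl, Gpi1 and Adm have no match to ACGTG in any of their windows. TGANTCA occurred in 5.72% of the 13865 promoter windows of genes tested and in 9 of 28 windows (32.1%) of the matrix protease list. ACGTG occurred in 24.2% of the windows of genes tested, in 15 of 30 of the hypoxia and glycolysis list, in 33.6% of those of the 312 lower genes and in 23.6% of those of the 537 higher genes. Windows were at hand for 207 of the 312 lower genes (262 windows), 204 of the 537 higher genes (254 windows) and 10898 of the 18275 genes tested. These are matches of letters, and no binding was measured.

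Mmp13, collagenase 3, which cleaves fibrillar collagen, measured -2.24, -3.69 and -2.36 in normal organoids in Matrigel and -0.37, 0.93 and 0.94 in collagen I. In tumor organoids it measured -0.24, 0.80 and 0.10 in Matrigel and 2.16, 2.64 and 5.03 in collagen I. Every collagen array lay above every Matrigel array of its tissue, and the tumor collagen C array stood highest. The averaged difference was 3.16 ± 0.50, a fold of 8.94, with 3.26 in normal and 3.06 in tumor organoids (limma adjusted p = 0.00525).

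Adamts5, an aggrecanase that cuts proteoglycans, measured -2.26, -1.65 and -1.31 in normal Matrigel arrays and 0.12, 0.28 and -0.47 in normal collagen arrays. Tumor organoids gave -2.38, -2.42 and -3.10 in Matrigel and 0.39, 0.10 and -0.37 in collagen I. The gels did not overlap, and collagen values of both tissues fell in one range. The averaged difference was 2.19 ± 0.23 (limma adjusted p = 0.00157). Of 35 genes in the list of matrix proteases and inhibitors, 5 were called, each higher on the average, where 14.7% of all genes were called and 9.31% called higher, so that the share is near the background. The list's median was 0.28 against -0.02 over all genes. The others were Mmp12 and Mmp14, with values of 1.75 and 0.61, and Pappa, which had opposite signs in the tissues. Mmp12, macrophage elastase, overlapped between the gels in normal organoids and was dim, at -5.33 to -3.34 on the Matrigel arrays of both tissues. Its call was lost under normexp background correction and with slide as a fixed block. The call of Mmp14 was lost (limma adjusted p of 0.0511 to 0.0776) without any 1 of normal Matrigel B or D, normal collagen B or C, tumor Matrigel B, or tumor collagen A or C.

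Of 26 interstitial matrix and matricellular genes 3 were called higher (Fn1, Tnc and Postn) and 1 lower (Spp1, osteopontin), near the shares of 9.31% and 5.39% over all genes. The fibrillar collagen genes Col1a1 at 0.65 ± 0.43, Col1a2 at 0.47 ± 0.45 and Col3a1 at 1.24 ± 0.51 did not pass. Fn1, fibronectin, which is assembled into a provisional matrix, measured 1.67, 1.41 and 1.40 in normal Matrigel arrays and 1.96, 2.91 and 2.41 in normal collagen arrays. The tumor values were -0.23, 0.30 and -0.20 in Matrigel and 0.78, 1.89 and 1.44 in collagen I. Its 3 probes gave averaged differences of 1.09 to 1.57, and the one used gave 1.17 ± 0.22 (limma adjusted p = 0.0093). Itga5 and Itgb1, the subunits of the classical fibronectin receptor, measured 0.13 ± 0.32 and 0.25 ± 0.18 with opposite signs in the tissues and did not pass. Itgav, the alpha-v subunit, measured 0.65 to 0.82 in normal Matrigel arrays and 1.02 to 1.15 in normal collagen arrays, and 0.10 to 0.42 against 0.98 to 1.44 in tumor organoids. Its difference of 0.66 ± 0.12 (limma adjusted p = 0.00768) was small and had no overlap. Itgb6, the epithelial partner of alpha-v in a receptor that activates TGF-beta, measured -2.41, -1.88 and -2.18 in normal Matrigel and -0.74, -1.18 and -1.47 in normal collagen arrays. Its tumor levels were -1.71, -2.25 and -1.04 in Matrigel and -0.10, -0.38 and 0.48 in collagen I. The averaged difference of Itgb6 was 1.35 ± 0.24 (limma adjusted p = 0.00717).

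Itga11, the alpha subunit of a collagen receptor typical of fibroblasts, rose by 1.33 ± 0.28 (limma adjusted p = 0.0144), with 0.62 in normal and 2.04 in tumor organoids. Of 23 integrins and matrix receptors 4 were called, all higher, the fourth being Itgb3 at 0.75, against 14.7% of all genes called and 9.31% called higher. The list's median was 0.08, and 8 of its 23 members had the same sign in both tissues. Itga2, the alpha subunit of the collagen receptor of epithelial cells, measured -0.02 ± 0.21 and did not pass, nor did the laminin receptor subunit Itga3 at -0.60 ± 0.20 with opposite signs in the tissues. With mouse as a fixed block the adjusted p was 0.0505 for Fn1, 0.0592 for Itgav, 0.0923 for Itga11 and 0.0698 for Itgb3, so these 4 lost the call, while Mmp13 (0.0468), Adamts5 (0.0192) and Itgb6 (0.0349) kept it. The call of Itgb3 was also lost, at differences of 0.60 to 0.80, without any 1 array other than normal Matrigel D, tumor Matrigel A or tumor collagen B.

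Summed fibroblast and pericyte markers overlapped between gels in normal organoids, at 20.7 to 130 in Matrigel and 32.4 to 77.8 in collagen I, and did not overlap in tumor organoids, at 4.52 to 5.76 and 6.12 to 11.4. Of these 13 markers 0 were called, and 6 had an unadjusted limma p under 0.05, as did 5786 of the 18275 genes tested. The markers' median was 0.89, and 12 of the 13 had the same sign in both tissues. Their part in the higher matrix genes was not tested. Postn, periostin, a matricellular protein made by mesenchymal cells, measured 3.36 to 4.98 in normal Matrigel and 4.90 to 5.37 in normal collagen arrays, which overlap. In tumor organoids it measured -0.51 to 0.51 in Matrigel and 2.61 to 4.54 in collagen I, and its averaged difference was 2.32 ± 0.39 (limma adjusted p = 0.00623).

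Sfrp2, a secreted Wnt modulator, measured -2.41, -1.78 and -2.18 in normal Matrigel and -0.33, -0.46 and -0.81 in normal collagen arrays. Tumor organoids gave -3.95, -4.58 and -3.67 in Matrigel and -1.30, -1.55 and -0.84 in collagen I. The gels stood apart in both tissues, by 2.21 ± 0.20 on average (limma adjusted p = 0.00121), and normal values exceeded tumor values within each gel. Tnfrsf11b, osteoprotegerin, a decoy receptor for RANKL chosen after its values were seen, rose by 2.49 ± 0.27 (limma adjusted p = 0.0016), with 1.63 in normal and 3.35 in tumor organoids. The file names a further probe Gpr177, an older name of Wls, the protein that carries Wnt ligands to the cell surface. The Gpr177 probe rose by 2.65 ± 0.33. It was dim on tumor Matrigel arrays, at -5.76, -6.18 and -4.73. Its call was lost under normexp background correction and with slide as a fixed block. The probe that carries the RefSeq accession of Wls differed by 0.47 ± 0.12 (limma adjusted p = 0.0281), so that both probes were higher but by very unequal amounts. The call of Wls was lost, at differences of 0.44 to 0.49, without any 1 of normal Matrigel A or B, the 3 normal collagen arrays, tumor Matrigel B or tumor collagen C, and with mouse as a fixed block (adjusted p = 0.127).

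Foxj1, the transcription factor that drives formation of motile cilia, measured -4.41, -3.70 and -3.80 in normal Matrigel and -0.60, -0.14 and -1.34 in normal collagen arrays. The tumor values were -0.78, -1.33 and -1.34 in Matrigel and -0.48, 0.47 and -0.28 in collagen I. The averaged difference was 2.17 ± 0.25 (limma adjusted p = 0.00189). The rise of 3.28 in normal organoids exceeded that of 1.05 in tumor organoids, with an adjusted p of 0.0471 for the difference. Rfx3, another ciliary transcription factor, named after its values were seen, rose by 1.55 in normal and 1.70 in tumor organoids.

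**Figure D2:**
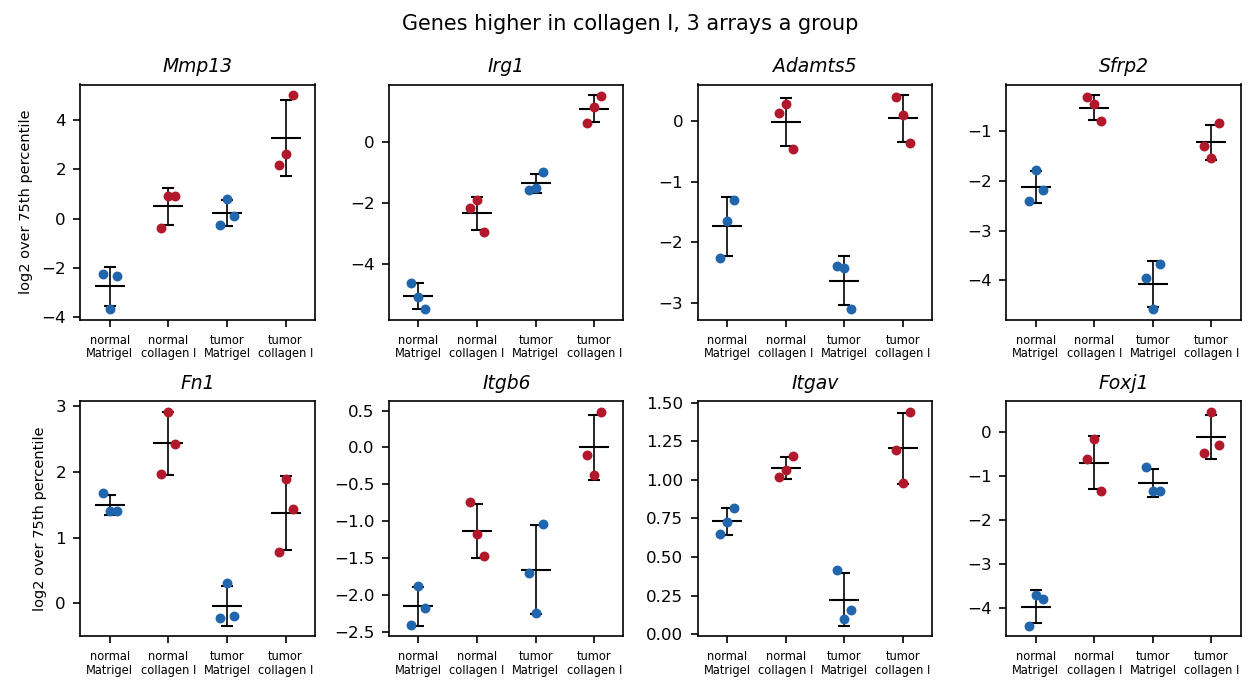
Log2 level over the array's 75th percentile for 8 genes higher in collagen I, 1 point an array, with the mean and SD of each group of 3. Blue points are Matrigel and red points collagen I; in all 8 panels the red points lie above the blue points of the same tissue, as for Mmp13, where the normal collagen arrays reach 0.94 against -2.24 in Matrigel.

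Of 29 inflammatory and acute-phase genes 8 were called higher and 3 lower, against 9.31% and 5.39% of all genes, with a median of 0.25. Irg1, the file's name for the gene now called Acod1, makes the antimicrobial metabolite itaconate. It measured -4.61, -5.05 and -5.45 in normal Matrigel and -2.15, -1.91 and -2.94 in normal collagen arrays. Its tumor levels were -1.57, -1.50 and -1.0 in Matrigel and 0.61, 1.14 and 1.47 in collagen I. The difference was 2.57 ± 0.23 (limma adjusted p = 0.00121) with 2.70 in normal and 2.43 in tumor organoids.

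Ccl7 and Ccl2, chemokines that draw monocytes, rose by 1.62 ± 0.29 and 1.57 ± 0.34 (limma adjusted p of 0.00777 and 0.0158). Ccl7 did not overlap between gels and Ccl2 did in normal organoids. Ptgs2, the inducible prostaglandin synthase, rose by 1.56, Hp, haptoglobin, by 1.25, and Csf1, the macrophage growth factor, by 0.62. The 3 lower genes were Il19, a cytokine of the IL-10 family, at -2.77, Lcn2, an iron-carrier-binding protein, at -0.66, and Csf3, the granulocyte growth factor, which had opposite signs. Il19 overlapped between gels in normal organoids, where Matrigel D measured -6.74, and its call was lost under normexp background correction. Lcn2 measured 4.32 to 4.71 in normal Matrigel and 4.29 to 4.58 in normal collagen arrays, which overlap. In tumor organoids Lcn2 measured 5.67 to 6.55 in Matrigel and 4.72 to 5.38 in collagen I. With mouse as a fixed block the adjusted p of Ccl7 was 0.0591.

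C1qa, a chain of complement C1q, measured -2.41, -5.04 and -2.52 in normal Matrigel and 0.01, -0.03 and 0.82 in normal collagen arrays. In tumor organoids it measured -5.68, -6.46 and -7.31 in Matrigel and -3.42, -4.99 and -5.66 in collagen I. The averaged difference was 2.69 ± 0.53 (limma adjusted p = 0.0109). C1qa was not well above background on tumor Matrigel arrays, so that the rise in tumor organoids is at least 1.48-fold. Ms4a7, Havcr2 and Mpeg1, also macrophage genes and chosen after their values were seen, differed by 2.47, 2.05 and 1.79 on the average of both tissues. They do not stand for macrophage genes at large, since Cd68, Csf1r and Cd14, given below, were higher in normal and lower in tumor organoids.

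Of 14 leukocyte markers tested 2 were called, both higher (Aif1 and Laptm5), where 14.7% of all genes were called and 9.31% called higher. The markers' median of 0.88 came from 1.75 in normal and 0.14 in tumor organoids. Their summed level was 36.9 to 58.1 in normal Matrigel and 94.1 to 109 in normal collagen arrays, with no overlap. In tumor organoids the sums of 45.4 to 68.3 in Matrigel and 32.8 to 69.4 in collagen I overlapped. Of the macrophage markers in the list, Cd68 measured 1.16 in normal and -2.92 in tumor organoids, Csf1r 1.61 and -0.84, and Cd14 0.61 and -0.13. None of these 3 passed on the average. Adgre1, another macrophage marker, rose by 2.55 in normal and 1.18 in tumor organoids. It had no overlap between gels and did not pass either (limma adjusted p = 0.0518). In the whole list 10 of the 14 markers had the same sign in both tissues. The call of Laptm5 was lost without any 1 normal collagen, tumor Matrigel or tumor collagen array, and that of Aif1 without normal collagen C. The part of leukocytes in the higher Irg1, chemokine and C1q levels was not tested.

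Several strong rises rest on dim probes. Krt75, a hair follicle keratin, differed by 2.28 ± 0.46. Megf10, an engulfment receptor, differed by 2.11 ± 0.36, S100g, a calcium-binding protein, by 2.31 ± 0.42, and Rcan2, a calcineurin regulator, by 1.97 ± 0.23. After normexp background correction these values became 1.0 for Krt75, 0.17 for Megf10, 0.11 for S100g and -0.01 for Rcan2, and C1qa became 0.98, none of them called. Mmp13 (2.91), Irg1 (1.68), Sfrp2 (1.08), Fn1 (1.16), Itgb6 (0.92) and Foxj1 (1.49) kept their calls under it, as did Adamts5. S100g, Megf10 and Rcan2 were not well above background on tumor Matrigel arrays. There the rise is at least 1.89-fold for Megf10 and at least 1.07-fold for S100g, and no bound can be given for Rcan2. Of the 537 higher genes, 147 were not well above background in tumor Matrigel and 224 (41.7%) were read by a RefSeq-named probe, against 246 (78.8%) of the 312 lower genes and 65.7% of all genes tested.

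Among the lower genes, Angpt2, angiopoietin-2, a ligand that destabilises vessels, measured -0.36, -0.01 and 1.54 in normal Matrigel and -2.47, -1.45 and -1.13 in normal collagen arrays. Tumor organoids gave -1.94, -3.65 and -1.12 in Matrigel and -5.44, -5.99 and -3.95 in collagen I. The averaged difference was -2.48 ± 0.52 (limma adjusted p = 0.0143), and the gels did not overlap. Apln, the ligand of the apelin receptor on endothelial cells, named after its values were seen, fell by 1.53. Summed endothelial markers were 10.4 to 15.3 in normal Matrigel and 6.39 to 12.3 in normal collagen arrays, and 0.60 to 0.87 against 0.37 to 0.61 in tumor organoids, and their part in the Angpt2 difference was not tested.

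Smoc2, a matricellular calcium-binding protein, measured -1.92, -1.37 and 0.05 in normal Matrigel and -3.48, -2.27 and -2.63 in normal collagen arrays. The tumor values were 0.19, 0.15 and -0.70 in Matrigel and -1.76, -2.79 and -3.39 in collagen I. It fell by 2.12 ± 0.39 on average (limma adjusted p = 0.00901), and its 2 probes gave -2.31 and -2.12. Fbln7, a fibulin of the extracellular matrix, measured -0.76 to -0.20 in normal Matrigel and -2.14 to -1.24 in normal collagen arrays, and -2.25 to -1.42 against -3.95 to -2.98 in tumor organoids. Its averaged difference was -1.52 ± 0.23 (limma adjusted p = 0.00477). The call of Fbln7 was lost with slide as a fixed block and under spike-in scaling.

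Krt15, a keratin of basal epithelial cells, measured 2.11, 1.93 and 0.12 in normal Matrigel and -0.03, -0.21 and -0.04 in normal collagen arrays. Its tumor levels were 1.21, 1.45 and 1.16 in Matrigel and -0.82, -0.48 and -2.60 in collagen I. It differed by -2.03 ± 0.41 (limma adjusted p = 0.0116). Among the normal Matrigel arrays, D came closest to the collagen arrays. Krt14, the main basal keratin, differed by 0.39 ± 0.53, and Krt8, a luminal keratin, by -0.41 ± 0.16, and neither passed. Neither did Cdh1, E-cadherin, at -0.05 ± 0.32, or Vim, vimentin, at -0.07 ± 0.39. Of 15 luminal markers 1 was called higher (Ehf) and 2 lower (Krt18 and Elf3, the latter with opposite signs in the tissues), against 9.31% and 5.39% of all genes. Krt18, another luminal keratin, had a limma adjusted p of 0.0248. Its call was lost without any 1 of 4 arrays and that of Ehf without any 1 of 9.

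Bhlha15, or Mist1, a transcription factor of secretory cells, measured 0.85, 0.84 and 1.62 in normal Matrigel and -0.01, -0.43 and -0.43 in normal collagen arrays. In tumor organoids it measured 3.30, 3.80 and 2.35 in Matrigel and 0.61, 0.34 and -1.98 in collagen I. Its difference was -2.45 ± 0.43 (limma adjusted p = 0.00726), while its other probe gave -0.83. Pou2af1, a transcriptional coactivator best known in B cells, fell by 2.15 ± 0.40, Fzd9, a Wnt receptor, by 2.07 ± 0.33, and Sox7, an endothelial transcription factor, by 1.99 ± 0.34 (limma adjusted p of 0.00911, 0.00548 and 0.00667). Tumor collagen C was the lowest array for Bhlha15, Pou2af1, Fzd9 and Krt15. Duoxa2 and Duoxa1, maturation factors of the dual oxidases and named after their values were seen, fell by 1.72 and 1.27, and Nrg1, the ERBB3 and ERBB4 ligand neuregulin-1, by 1.14.

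Arrays lay on several slides, and 3 slides held both gels of 1 tissue, 2 of them with normal and 1 with tumor organoids. Within these slides Mmp13 differed by 1.98 and 4.63 in normal and by 2.06 in tumor organoids. Adamts5 differed by 1.43, 1.18 and 3.49, Irg1 by 3.30, 2.11 and 1.61, and Sfrp2 by 1.85, 0.97 and 2.38, in the same order of slides. Angpt2 gave -4.01, -1.11 and -4.32, and Smoc2 -3.52, -1.27 and -1.06. All 849 genes without overlap keep their direction within slides, which non-overlap itself requires. With slide as a fixed block Mmp13 stood at 2.88 (limma adjusted p = 0.0886), Adamts5 at 2.18 (0.0571), Irg1 at 2.26 (0.0545), Sfrp2 at 2.06 (0.0598), Foxj1 at 1.76 (0.0536) and Angpt2 at -2.95 (0.140), so that these 6 lost the call there.

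**Figure D3:**
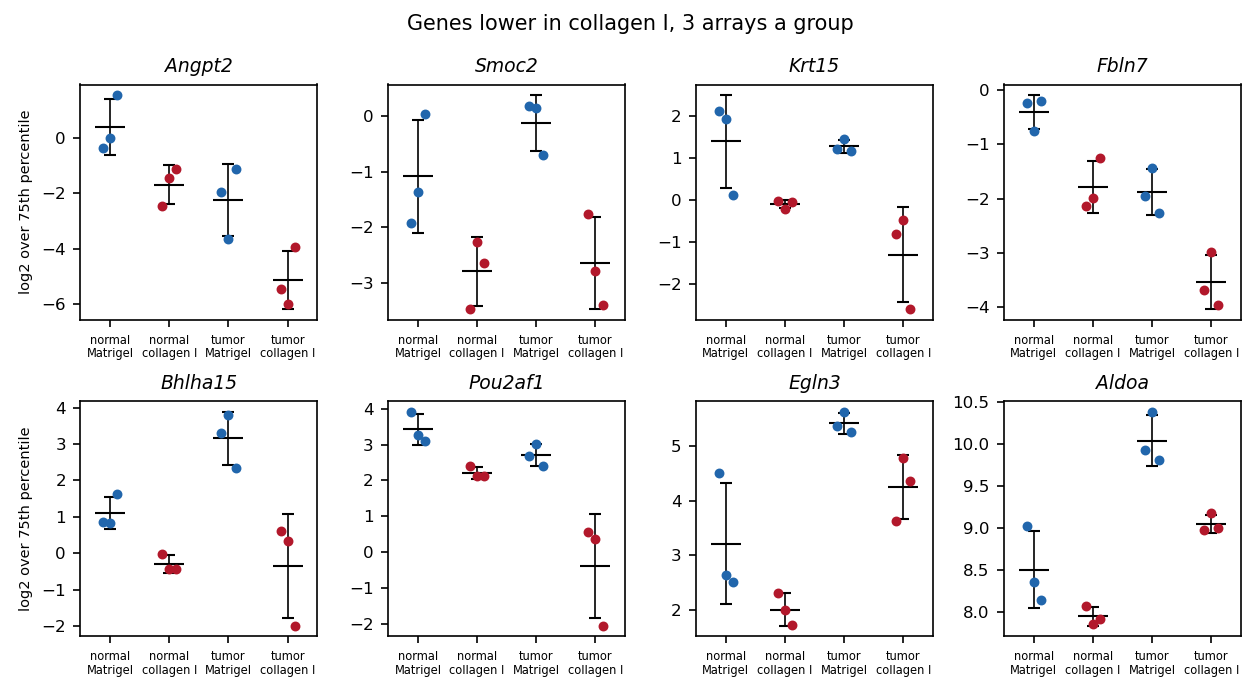
Log2 level over the array's 75th percentile for 8 genes lower in collagen I, 1 point an array, with the mean and SD of each group of 3. Blue points are Matrigel and red points collagen I; the red points lie below the blue points of the same tissue in all 8 panels, and for Egln3 and Aldoa 1 normal Matrigel array stands above the other 2. On spike-in scaling Egln3 is at -0.17 and not called, Fbln7 is not called either, and Aldoa is not called lower.

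Of 23 hypoxia and glycolysis genes 9 were called on the 75th percentile scale, all lower, against 5.39% of all genes called lower, with a median of -0.77, but under spike-in scaling 3 were called, all higher, and the median was 0.24. The 9 genes were the glycolytic enzymes Hk1, Hk2, Gpi1, Pfkl, Aldoa, Pgk1 and Eno1, the oxygen-sensing prolyl hydroxylase Egln3 and the vasodilator peptide gene Adm. All 9 had the same sign in both tissues, 6 of them without overlap, and 22 of the 23 members had the same sign, Pdk1 being the exception.

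Egln3 measured 4.50, 2.64 and 2.51 in normal Matrigel and 2.31, 1.99 and 1.72 in normal collagen arrays. Tumor organoids gave 5.37, 5.63 and 5.26 in Matrigel and 3.62, 4.79 and 4.36 in collagen I. Normal Matrigel A stood high, and the other 2 lay close to the collagen arrays. Aldoa, fructose-bisphosphate aldolase, measured 9.02, 8.36 and 8.14 in normal Matrigel and 8.08, 7.86 and 7.92 in normal collagen arrays, again with mouse A highest, and 9.81 to 10.38 against 8.97 to 9.17 in tumor organoids. Pgk1, phosphoglycerate kinase, had 7.58, 6.44 and 5.57 in normal Matrigel arrays and 5.54 to 5.97 in normal collagen arrays, which overlap.

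The averaged differences were -1.18 ± 0.34 for Egln3, -1.04 ± 0.26 for Hk2, -0.77 ± 0.17 for Aldoa and -1.0 ± 0.30 for Pgk1 (limma adjusted p of 0.0399, 0.0259, 0.0160 and 0.0459). The call of Egln3 was lost, at -1.26 to -1.03, without any 1 array other than the 3 normal Matrigel arrays and tumor collagen B. That of Hk2 was lost, at -1.06 to -0.87, without any 1 of the 3 normal collagen arrays, tumor Matrigel B or tumor collagen A. Without normal Matrigel A the list's same-sign count fell from 22 to 13 of 23, and 6 genes were called lower. The count of lower genes without any other 1 array ran from 3 (without normal collagen C, tumor Matrigel B or tumor collagen A) to 15 (without normal Matrigel D), with 4 without normal collagen A or B. It was 5 with mouse as a fixed block and 0 after normexp background correction, where all 23 averaged differences were below 0.

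**Figure D4:**
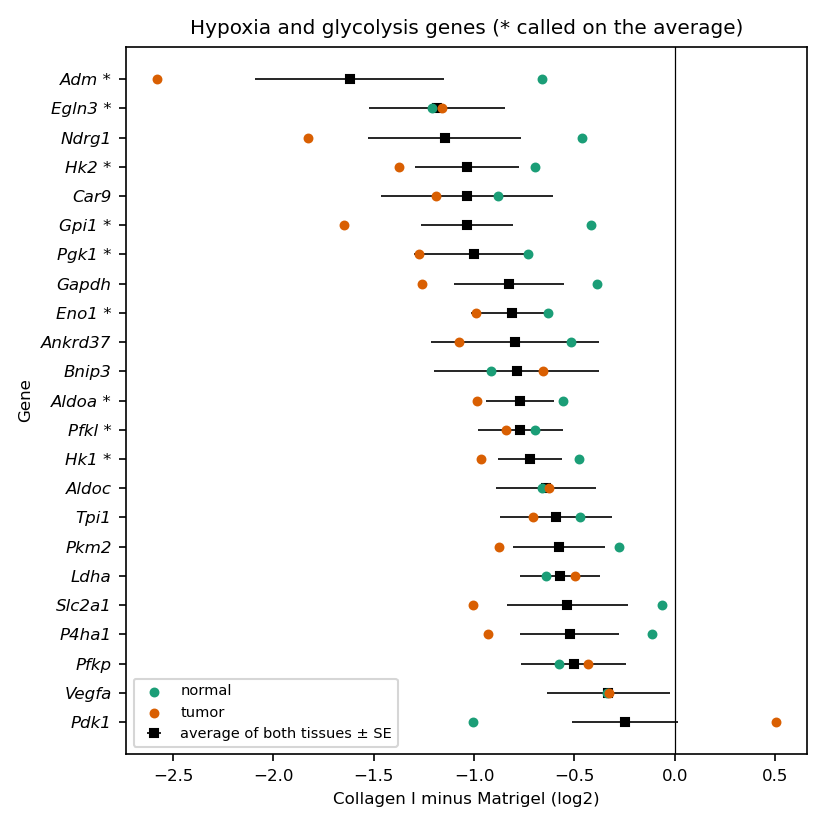
Collagen-I-minus-Matrigel difference (log2) of the 23 hypoxia and glycolysis genes tested, with the average of both tissues and its SE as a black square, normal organoids in green and tumor organoids in orange. All 23 averages lie below 0 and 9 are called; on spike-in scaling 6 of 23 lie below 0.

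Among the other lists, 11 of 20 stress response genes were called, all lower (5.39% over all genes), with a median of -0.66, while spike-in scaling called 8 higher and 1 lower. Only 5 of the 11 had the same sign in both tissues, since the list's median was 0.03 in normal and -1.28 in tumor organoids. Ddit3, the stress transcription factor CHOP, differed by -0.18 in normal and -3.23 in tumor organoids, and that difference passed its test (limma adjusted p = 0.0089). Basement membrane genes had 3 of 21 called, all lower (Lama4, Lamb2 and Lamc1, chains of laminins), and spike-in scaling turned this to 11 higher. Lama4 was the one without overlap, at -0.68 ± 0.12, and its 4 probes ran from -0.87 to 2.12, so that its direction depends on the probe. Lamb2 and Lamc1 lost their calls without any 1 of several arrays, normal collagen A, B and C among them.

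Cell cycle genes had 0 of 30 called by limma on the average, with 5 at an unadjusted p under 0.05. Over all genes, 5786 of the 18275 tested were at that level. Cell junction genes had 0 of 23 called and 3 at that level, and genes of the epithelial-mesenchymal transition 0 of 11 and 3. FGF and ERK feedback genes had 1 of 22 higher (Fos) and 4 lower, against 9.31% and 5.39% of all genes. Among the lower ones were the feedback inhibitors Spry1 and Spry2, the latter with opposite signs in the tissues. For this list spike-in scaling called 8 higher and 0 lower. The call of Fos was lost without any 1 of 8 arrays, the 3 normal collagen arrays among them. Genes of SRF, YAP and TGF-beta signalling had 4 of 27 called, all higher (Ccn1, Ccn2, Ankrd1 and Tpm1). Over all genes 14.7% were called in either direction and 9.31% were called higher. Of these only Tpm1, tropomyosin, was without overlap, and its probes ran from -0.13 to 0.56.

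**Figure D5:**
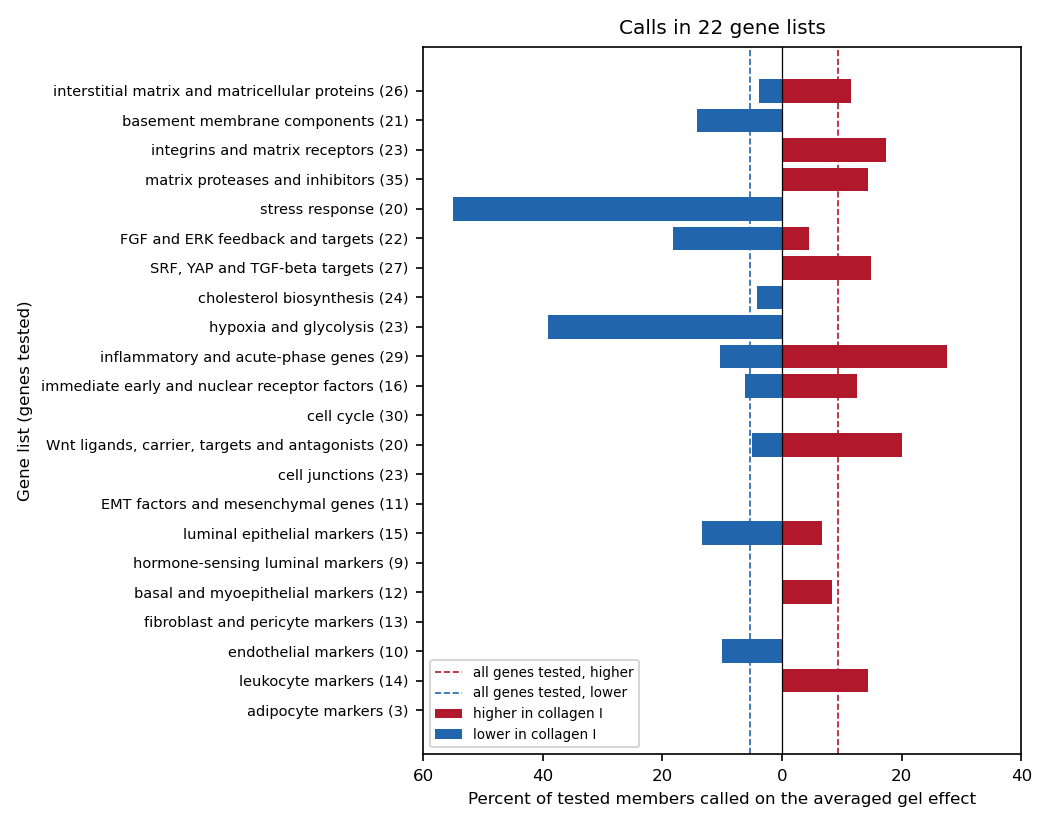
Percent of the tested members of each of 22 gene lists called higher (red, to the right) or lower (blue, to the left) in collagen I on the averaged effect, with the number tested in brackets. Dashed lines are the shares over all genes, 9.31% higher and 5.39% lower; stress response (11 of 20) and hypoxia and glycolysis (9 of 23) reach farthest to the left, both of which turn under spike-in scaling, and inflammatory genes (8 of 29) farthest to the right.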

How the data were processed

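RNA of 12 organoid cultures was amplified, labelled with Cy3 and hybridised to 1-colour Agilent arrays, per the labels' protocols. The authors deposited 1 scanner file per array, and the intensity used is its processed signal, made with Feature Extraction 9.5.1.1 per the file headers and 9.1 per the submitters' processing notes. The authors' deposited log2 values, whose scaling no source used here gives, served as an alternative. Log2 intensity minus each array's 75th percentile was averaged over the spots of a probe, without control and outlier-flagged spots. Of 41174 probes, 26606 were kept because all 3 arrays of some group read them well above background; a gene's value is that of its brightest kept probe on average. RefSeq accessions of GRCm38.p6 named 23075 probes (56.0%) and the files the others. The array number limits the precision.

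A 4-group limma 3.58.1 fit (R 4.3.3, residual df 8) gave each tissue's difference and their mean, with Benjamini-Hochberg adjustment at 0.05. Where no array of a group read a probe well above background, the fold is a lower bound ("at least"). It sets the mean of the brighter group against, for each array of the dim one, the dimmest signal that still counted as well above background there, or the probe's own if higher. In simulated data, 91 of 100 genes changed 4-fold in both tissues and 77 of 100 changed 2-fold were recovered on the average, and 59 of 100 changed 4-fold in tumor alone were called too. The test for a response in both tissues recovered 65 of the 100 changed 4-fold in both. The simulated noise was independent between arrays, without mouse or slide effects, so these shares may not hold for the real arrays. Mouse letters in the labels pair the gels within a tissue. After removal of group means, both arrays of a mouse correlated at 0.24 (A) and -0.24 (B) in normal and at -0.06 (A), 0.32 (B) and 0.42 (C) in tumor organoids. Members and the 22 lists (412 of 425 members tested) were chosen with earlier results of these data known. Named genes, 107 by the rule with 1 further gene not reported here, were those with the largest smaller-of-both or averaged difference without overlap (10 per direction), up to 5 dim genes per direction, up to 4 called members of each list or its 2 brightest, 5 with opposite signs and 17 fixed genes; some were left out for length, and genes outside it are said to be chosen after their values were seen. Alternatives were other background corrections, normalizations and probe filters, mouse and slide blocks, array weights, the 2 earlier arrays averaged in, and leaving out each array; spike-in scaling was added after seeing the data. Motifs were counted with pandas 2.3.3 and figures drawn with matplotlib 3.10.9.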

Additional observations from a re-analysis of the deposited data

Results flagged for a closer look

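The gel effect differed between tissues for 480 of 18275 genes (limma interaction, adjusted p under 0.05), and 14 genes of the naming rule that were called on the average were among them. The tumor-minus-normal difference of effects was below 0 for 1500041J02Rik (-2.51), Atf4 (-1.24), Ddit3 (-3.05), Foxj1 (-2.22), Mme (-1.61), Nr4a2 (-1.46), Csf3 (-4.27), Bpifb1 (-4.30), Foxa2 (-4.40) and 2310002L13Rik (-5.70). It was above 0 for Gpr177 (2.94), Zfp945 (3.47), Cacna1g (3.54) and Pappa (4.53). Of these, Foxj1, Gpr177, Nr4a2 and 1500041J02Rik were higher in collagen I in both tissues without overlap between gels. Csf3, Pappa, Foxa2, Bpifb1, Cacna1g, Zfp945 and 2310002L13Rik had effects of opposite sign in the tissues. The count of 480 became 41 without normal Matrigel B and 2084 without normal Matrigel A.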

How the results depend on the processing

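Counts within 1.5 times of the main ones are not repeated. The count called on the average (2686) became 217 under normexp background correction (41.9% higher, against 63.3%), 1572 with no filter on dim probes, 867 with mouse as a fixed replicate block, 246 with slide as a fixed block (95.5% higher) and 14998 under spike-in scaling (99.8% higher); it was 1901, with 49.2% higher, among probes well above background on all arrays. Leaving out an array gave 1146 to 3222. The same-sign count (2448) became 210, 1482, 814, 224 and 13444 in the same 5 settings and 1070 to 2895 without an array. The count without overlap (849) became 136 under normexp, 292 with the fixed mouse block, 117 with the fixed slide block, 3645 under spike-in scaling and 554 to 1075 without an array. Lower genes, 312 of the 849, numbered 68 under normexp, 72 with the fixed mouse block, 1 with the fixed slide block and 1 under spike-in scaling. A response in both tissues was called for 4 genes under spike-in scaling. The count for the difference of effects (480) became 201 with quantile normalization, 10 under normexp, 240 under normexp with quantile normalization, 142 with the authors' values, 59 with no dim filter, 2220 with the earlier arrays averaged in, 1709 and 0 with a random and a fixed mouse block, 1671 and 1345 with a random and a fixed slide block, 3438 with array weights, 999 with trend and robust variances, 10954 under spike-in scaling and 12 to 2084 without an array. The causes of these shifts were not tested. The fixed blocks leave 3 (mouse) and 2 (slide) residual df.

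Of the 849 genes, 707 kept their direction under normexp, 605 under spike-in scaling and at least 842 under each other alternative that tested all 849. Among the 107 named genes the sign of a called value turned under normexp for Cd300lf (-0.048), Rcan2 (-0.011), 1500041J02Rik (-0.067), Rgs1 (-0.17), Kcnh8 (-0.36), Il18rap (-0.30), Olfr1384 (-0.31), Dkk2 (-0.29), Laptm5 (-0.13), Cacna1g (-0.27) and Zfp945 (-0.080). Spp1 turned to 0.076 with quantile normalization, 0.055 with normexp and quantile normalization, and 0.11 with the authors' values, and Klf2 to 0.13 as the mean of its probes. Under spike-in scaling the sign turned, counting values called on either scale, for Spp1 (0.58), Lama4 (0.33), Lamc1 (0.50), Lamb2 (0.52), Psat1 (0.11), Herpud1 (0.25), Atf4 (0.30), Etv4 (0.14), Ccnd1 (0.19), Spry1 (0.22), Klf2 (0.46), Pcna (0.87), Wnt6 (0.063), Cldn7 (0.90), Vim (0.94), Krt18 (0.47), Tie1 (0.020), Itga2 (0.99), Krt8 (0.60) and Cdh1 (0.96); uncalled values such as Itga3 (0.41), Mcm6 (0.59), Areg (0.81) and Fabp4 (0.54) turned too. Of 89 called, 58 kept the call without any 1 array and 4 in every setting run. Dim probes limit the precision most in tumor Matrigel.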

Other observations

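Among the 89 called genes of the naming rule, 4 kept their call in every setting run: Postn, Ddit3 and the transcripts 2310067E19Rik and 3300001A09Rik. 2310067E19Rik, an unnamed transcript, was higher in collagen I by 1.81 in normal and 3.78 in tumor organoids. 3300001A09Rik, the file's older name for C2cd4b, was higher by 3.51 and 1.67. Malat1, a long RNA retained in the nucleus and chosen after its values were seen, was higher by 1.08 in normal and 1.95 in tumor organoids without overlap between gels (average 1.51 ± 0.37, limma adjusted p = 0.0233).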
